A study of Mus musculus with 31 samples.

Results

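The genes described here were 37 monocyte and macrophage genes, taken by name from the gene column of the count table as a fixed list of markers, receptors and effectors of these cells. All 37 were among the 39179 genes of the table, and the rule uses names alone, though earlier results of these data were known when it was set. They were followed over 20 melanoma tumors, with 11 cultures of the melanoma cells alone as background. Monocytes enter tissues along chemokine gradients and there become macrophages, which depend on signaling through the receptor *Csf1r*, take up antibody-coated particles and dying cells, and secrete complement and lipid carriers. Tumor macrophages are described by scavenger receptors and enzymes that mark activation states, among them *Mrc1* and *Nos2*. Glucocorticoids (GCs) act through the GC receptor (GR), encoded by *Nr3c1*, and are well known to change macrophage gene expression.

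Bulk RNA sequencing from 3′ ends covered the mouse melanoma line 20967, either parental or GR-deficient (GR KO, made by CRISPR editing with ribonucleoproteins and used as 1 clone). *In vivo*, these cells were placed intradermally in wild-type C57BL/6 mice, and 5 mice per group bore parental control, parental GC, GR KO control or GR KO GC tumors, where the GC was an ointment with 0.05% clobetasol propionate given 3 times a week. The hosts were GR-competent in every group, so their macrophages carried an intact receptor also in GR KO tumors. *In vitro*, 3 parental and 3 GR KO cultures received DMSO, and 2 parental and 3 GR KO cultures received clobetasol propionate, whose dose is 10 µM in the treatment label and 1 µM in the library names. Age was not given in the sources used here. Libraries held 14441166 to 26386770 counts. Levels are counts per 1000000 (CPM) scaled with TMM factors within the tumors or within the cultures, and since each transcript gives a tag near its 3′ end, levels are not compared between genes.

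*Nr3c1*, the edited gene, measured 63.4, 57.1, 44.9, 55.6 and 52.2 CPM in parental control tumors 1 to 5 and 53.4, 24.4, 48.2, 37.3 and 49.8 CPM in parental GC tumors 1 to 5. In GR KO tumors it measured 20.7, 27.3, 31.4, 31.8 and 23.5 CPM with control and 47.9, 21.7, 58.04, 32.5 and 49.4 CPM with GC. All 5 GR KO control tumors were below all 5 parental control tumors, and the GC groups overlapped. Among cultures, *Nr3c1* was at 33.2, 29.99 and 35.6 CPM in parental DMSO, 39.5 and 33.4 CPM in parental GC, 24.8, 21.00 and 16.4 CPM in GR KO DMSO and 20.9, 22.5 and 13.1 CPM in GR KO GC cultures. A 3′ tag lies outside the edited stretch and counts transcripts that carry the edit too, so these levels do not check the genotype labels.

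Some tumor libraries stood apart before any gene was tested. The predicted gene *Gm26924* took over 5% of counts in 6 libraries, namely 5.55% in parental control tumor 1, 11.6%, 8.97%, 6.57% and 16.3% in GR KO control tumors 1, 2, 3 and 5, and 6.65% in GR KO GC tumor 4, but 0.248% in GR KO control tumor 4. Those 4 GR KO control tumors also had 13442, 14887, 15150 and 14335 genes with a count, against 16980 in GR KO control tumor 4. The mitochondrial share of counts was 0.587% to 1.15% in GR KO control tumors and 1.48% to 1.99% in GR KO GC tumors, with the parental tumors at 1.25% or more. *Actb* took 3.00%, 2.90%, 2.57%, 1.44% and 2.15% of counts in GR KO control tumors 1 to 5 and at most 1.95% in GR KO GC tumors. On the first principal component of all tumors, signed so that it rises with the share of *Gm26924*, 5 libraries scored above 40: parental GC tumors 2 and 4 and GR KO control tumors 1, 2 and 5. Another 3 scored below -40, namely parental control tumor 5 (-40.1) and GR KO GC tumors 1 and 5 (-41.3 and -53.3). Results are therefore also given without the 6 libraries, without the 5, without all 8 beyond 40 on either side, and with the log2 share of *Gm26924* as a covariate, all 4 chosen after seeing the data. Leaving out the 6 keeps 1 GR KO control tumor, which is then assumed to vary like the other groups, and leaving out the 8 keeps 2.

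A DEG was defined by an adjusted p under 0.05 (Benjamini-Hochberg over all genes) and a fold change of at least 1.5 in edgeR's quasi-likelihood test. Of the 37 members, 36 passed the filter on low counts in tumors and were tested among 15919 genes. The exception was *Nos2*. With GC in parental tumors, 4 of 36 members were DEGs (*Stab1*, *Apoe*, *Mertk* and *Chi3l3*), all 4 higher, against 0.779% of all genes (0.433% higher and 0.345% lower). The median log2 fold change was 0.10 over the members and 0.00 over all genes. The samples of both groups did not overlap for 5 members, *Cd163*, *Chi3l3*, *Mertk* and *Stab1* higher and *Retnla* lower, against 4.21% of all genes. The members' count was 5 without the 6 libraries high in *Gm26924*, 1 without the 5 above 40 on the first component, 1 without the 8 beyond 40 on either side and 5 with the covariate. The single member called without the 5 and without the 8 libraries was *Chi3l3*.

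With GC in GR KO tumors, 5 of 36 members were DEGs: *Fcgr3*, *Mrc1*, *Maf* and *Chi3l3* were higher and *Retnla* was lower. The same test called 6.42% of all genes (2.71% higher, 3.71% lower). Median log2 fold changes were 0.08 over the members and 0.05 over all genes, and *Apoe*, *Chi3l3* and *Fcgr3* were higher in every GC tumor than in every control tumor, a separation seen for 5.08% of all genes. Here the DEG count was 2 without the 6 libraries high in *Gm26924*, 3 without the 5 above 40 on the first component, 0 without the 8 beyond 40 on either side and 5 with the covariate, with *Lyz1* and *Retnla* called without the 6 libraries and *Chi3l3*, *Lyz1* and *Retnla* without the 5. Leaving out 1 library moved the count to 3 without GR KO control tumor 1, 3 without GR KO control tumor 2, 9 without GR KO control tumor 4, 3 without GR KO GC tumor 1, 8 without GR KO GC tumor 2, 1 without GR KO GC tumor 3 and 2 without GR KO GC tumor 5. With all libraries 18 members had an unadjusted p under 0.05 in edgeR (all genes 24.5%) and DESeq2 called 11 (1756 of all 15919 genes), and a fit of the 2 compared groups alone called 2.

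Between genotypes, *Fcgr4* was the 1 DEG of 36 members in control tumors, higher in GR KO, against 2.25% of all genes (1.26% higher, 0.986% lower). The member median was 0.13 and that of all genes -0.04 on the log2 scale. *C1qa*, *Fcgr1* and *Fcgr4* did not overlap between these groups and were higher in GR KO control tumors, against 3.92% of all genes. The DEG count was 0 without the 6 libraries high in *Gm26924*, 0 without the 5 above 40 on the first component, 0 without the 8 beyond 40 on either side and 0 with the covariate. It was 7 without GR KO control tumor 4 (*C1qa*, *Cd163*, *Fcgr4*, *Itgam*, *Maf*, *Retnla* and *Trem2*), and edgeR called 0 members without any one of parental control tumors 2, 3, 4 and 5 or GR KO control tumors 1 and 2, against 9 at an unadjusted p under 0.05 with all libraries (all genes 19.98%) and 4 called by DESeq2 (1001 of all genes). For all comparisons, shares of all genes are given only for fits of all 4 groups with all libraries and no block. Member counts with libraries left out, with the block or with the 2 compared groups alone are therefore not set against all genes. Their rises or falls are not read as results about the members. With the replicate number as a block, edgeR called 3 members in control tumors, *C1qa*, *Fcgr4* and *Spp1*. In GC tumors *Stab1* was the 1 DEG of 36, lower in GR KO, against 0.634% of all genes (0.195% higher, 0.440% lower), with medians of 0.01 for the members and 0.01 for all genes. *Cd163* and *Stab1* were lower in every GR KO GC tumor than in every parental GC tumor, against 3.84% of all genes without overlap. Here the DEG count was 0 without the 6 libraries high in *Gm26924*, 0 without the 5 above 40 on the first component, 0 without the 8 beyond 40 on either side and 1 with the covariate, and it was 0 by edgeR without any one of parental GC tumors 2, 4 and 5 or GR KO GC tumors 1, 2, 3 and 5, where 8 members had an unadjusted p under 0.05 with all libraries (all genes 11.4%) and DESeq2 called 1 (293 of all genes). With the block edgeR called 0.

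The difference between the GC effects of both genotypes was tested as an interaction. edgeR called 0 of 36 members, against 0.195% of all genes, while 7 members had an unadjusted p under 0.05 (all genes 20.1%) and DESeq2 called 1, *Spp1* (784 of all genes). Member and all-gene medians of this difference (parental minus GR KO) were 0.14 and -0.04. Without GR KO control tumor 4 edgeR called 3 members (*Cd14*, *Mertk* and *Spp1*), and without parental GC tumor 3 it called *Spp1*. With the replicate number as a block, edgeR also called *Spp1* with all libraries. A count of 0 in the fit without a block does not show that the effects were equal. The comparisons share control groups, so their values for a member are given side by side and are not independent.

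**Figure D1:**
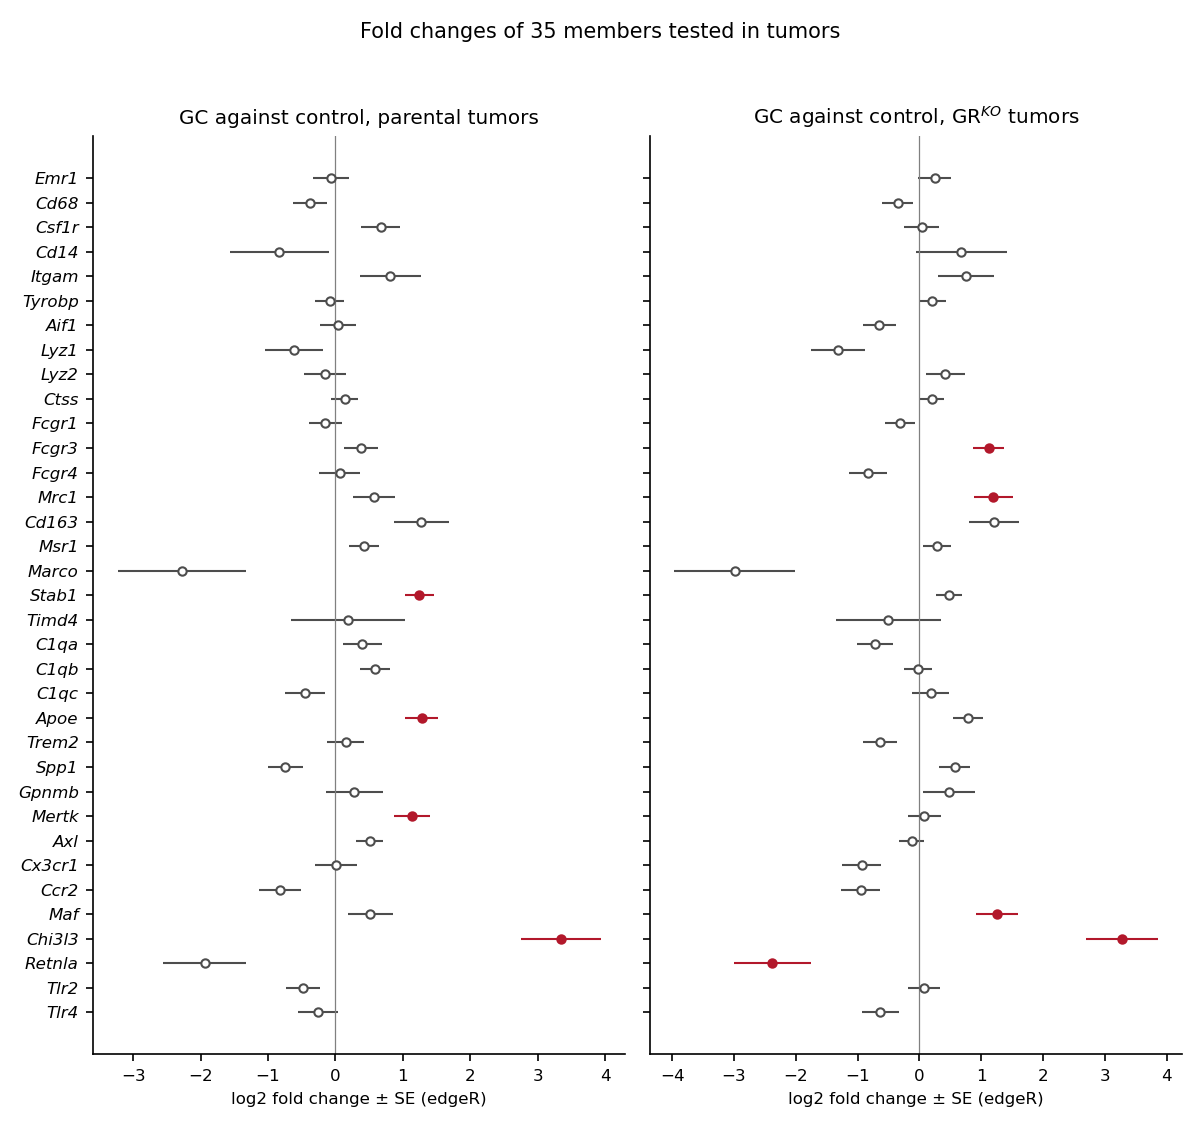
Log2 fold change with GC ± SE (edgeR) of 35 of the 36 members tested, in parental tumors on the left and GR KO tumors on the right, with filled red points for DEGs. *Chi3l3* was the member with the largest positive fold change in both panels, 3.35 and 3.27.

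The label of the list was checked against the cultures, which hold melanoma cells and no host cells. Over all counts, 36 of 37 members had a higher CPM in tumors than in cultures, and *Axl* was the exception. In the 11 cultures together, 9 members had 0 counts, among them *Emr1*, *Tyrobp*, *Lyz1*, *Fcgr1*, *Timd4*, *Nos2*, *Chi3l3* and *Retnla*, and 5 had 1 to 3 (*Aif1*, *Mrc1*, *Cd163*, *C1qc* and *Trem2*). With a floor of 3 counts over all cultures, *Emr1* was at least 5769-fold higher in tumors and *Tyrobp* at least 9655-fold. This floor covers counting error only. Against measured culture counts, *Csf1r* was 1783-fold, *Lyz2* 4176-fold and *Apoe* 2761-fold higher. Some members were also counted in cultures at levels not far from those in tumors: the tumor to culture ratio was 1.22 for *Gpnmb*, 1.48 for *Tlr4*, 1.96 for *Cd14*, 3.12 for *Spp1* and 3.69 for *Mertk*, and *Axl* had 610.0 CPM in tumors and 1085 CPM in cultures before TMM scaling. For these 6 members tumor RNA may come from host or melanoma cells. In bulk RNA, fewer cells of a type and less RNA per cell cannot be told apart.

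**Figure D2:**
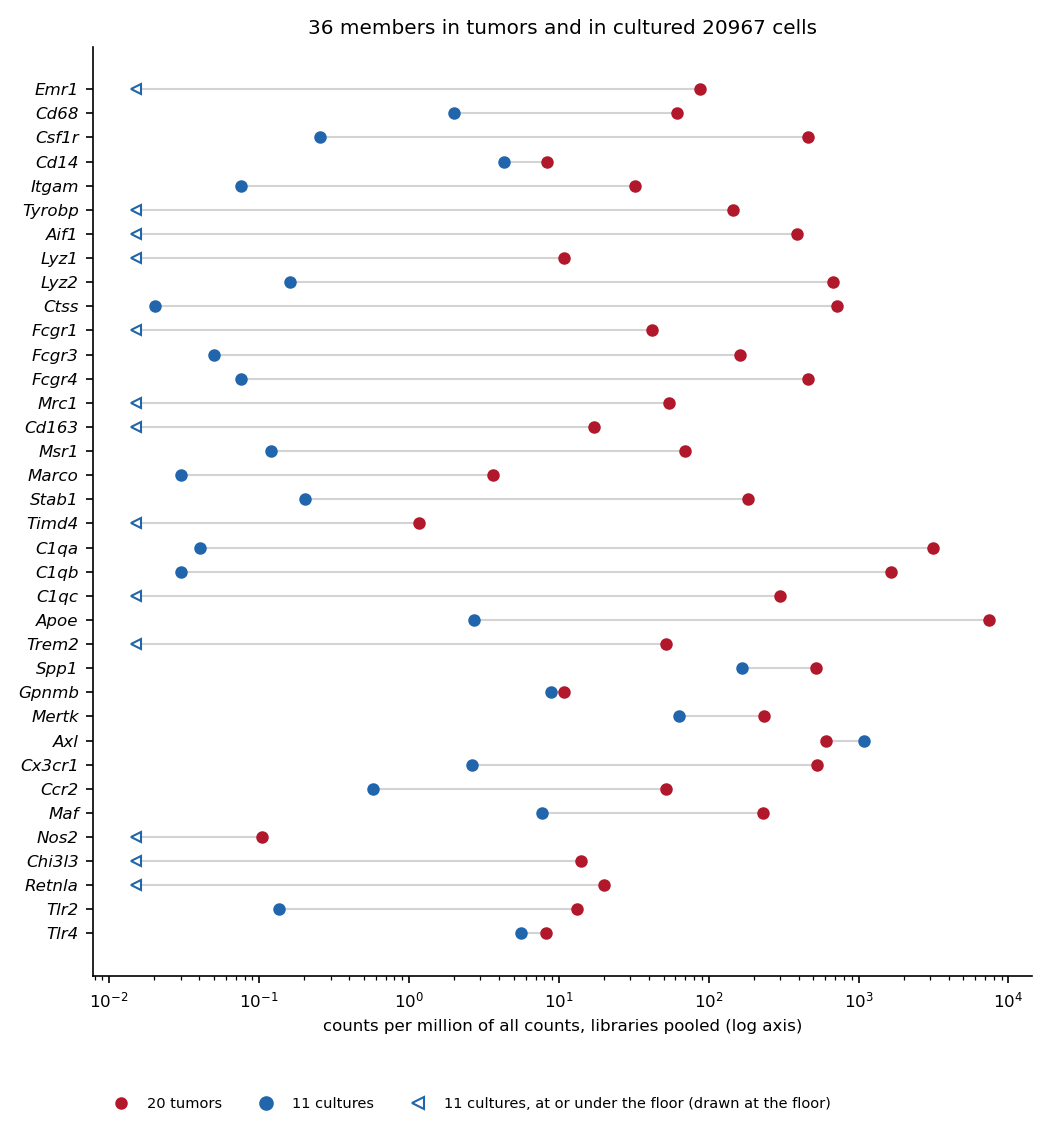
CPM of 36 members over all tumors and over all 11 cultures together, on log axes. *Axl* is the member with more in cultures, 1085 against 610.0.

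Identity genes came first. *Emr1*, which encodes the adhesion receptor F4/80 (now named *Adgre1*), measured 84.6, 83.97, 101, 96.3 and 89.01 CPM in parental control tumors 1 to 5 and 132, 62.7, 78.6, 54.4 and 108 CPM in parental GC tumors 1 to 5. *Emr1* was at 34.7, 69.7, 113, 101 and 56.1 CPM in GR KO control and 97.03, 94.98, 77.6, 61.6 and 114 CPM in GR KO GC tumors. Parental control tumors lay close together, and the other groups spread to both sides of them. *Csf1r*, the receptor for the macrophage growth factors CSF1 and IL-34, measured 410.3, 674, 316, 305 and 264 CPM in parental control and 451, 1012, 298, 867 and 513 CPM in parental GC tumors. The same receptor was at 319.9, 449.8, 389, 414 and 434 CPM in GR KO control and 309, 568, 394, 458 and 325 CPM in GR KO GC tumors. Parental GC tumors 2 and 4, above 40 on the first component, had the 2 highest *Csf1r* levels, and all groups overlapped. *Cd68*, a lysosomal glycoprotein, measured 48.3, 75.4, 72.3, 48.98 and 85.96 CPM in parental control and 67.6, 22.8, 47.3, 53.2 and 63.7 CPM in parental GC tumors. GR KO tumors had 52.99, 53.3, 83.4, 80.6 and 74.7 CPM of *Cd68* with control and 51.4, 52.4, 44.6, 47.1 and 74.8 CPM with GC. Its lowest value was in parental GC tumor 2, and the groups overlapped. *Cd14*, a co-receptor for lipopolysaccharide, measured 3.12, 8.35, 10.4, 13.4 and 10.6 CPM in parental control and 11.1, 1.41, 6.90, 0.837 and 5.53 CPM in parental GC tumors. *Cd14* was at 0.953, 1.19, 5.60, 22.1 and 1.41 CPM in GR KO control and 12.04, 4.64, 9.53, 4.13 and 20.1 CPM in GR KO GC tumors. GR KO control tumor 4 stood above the other 4 of its group, and all groups overlapped.

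The other 6 identity genes are given as mean ± SD (n = 5) in parental control, parental GC, GR KO control and GR KO GC tumors, in this order. *Itgam*, the alpha chain of the integrin CD11b/CD18, had 28.97 ± 11.1, 50.97 ± 17.9, 16.6 ± 15.9 and 28.1 ± 11.3 CPM. *Tyrobp*, the adaptor DAP12 of activating receptors, had 148 ± 27.5, 139.6 ± 38.04, 133 ± 40.7 and 154 ± 24.2 CPM. Levels of *Aif1*, a cytoplasmic calcium-binding protein, were 388 ± 113, 399 ± 93.4, 478 ± 141 and 304 ± 126 CPM. The lysozyme genes are near-identical neighbours on chromosome 10, so the split of counts between them is uncertain. *Lyz1* had 11.3 ± 3.20, 7.38 ± 2.03, 15.8 ± 15.2 and 6.37 ± 2.86 CPM, and *Lyz2* had 706 ± 313, 633 ± 226, 545 ± 257 and 731 ± 114 CPM. *Ctss*, the protease cathepsin S, had 568 ± 166, 626 ± 153, 774 ± 84.96 and 892 ± 59.2 CPM. In both GC comparisons 0 of the 10 identity genes passed edgeR's threshold, with log2 fold changes between -0.83 and 0.82 for parental and between -1.32 and 0.75 for GR KO tumors, and adjusted p from 0.0703 to 0.9700. At an unadjusted p under 0.05 there were 1 of these 10 in parental and 2 in GR KO tumors (all genes 14.1% and 24.5%), and DESeq2 called *Lyz1* in GR KO tumors. Summed over the 10 genes, the level was 2412 ± 693 CPM in parental control, 2628 ± 501 in parental GC, 2513 ± 500.4 in GR KO control and 2679 ± 287 in GR KO GC tumors (SD, n = 5). These sums were, tumor by tumor, 2355, 3595, 1902, 2288 and 1919 CPM in parental control and 2906, 2524, 1817, 3114 and 2779 CPM in parental GC tumors, and 2060.4, 2249, 2762, 3275 and 2222 CPM and 2597, 3039, 2914, 2367 and 2477 CPM in GR KO control and GC tumors. All 4 groups overlapped.

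**Figure D3:**
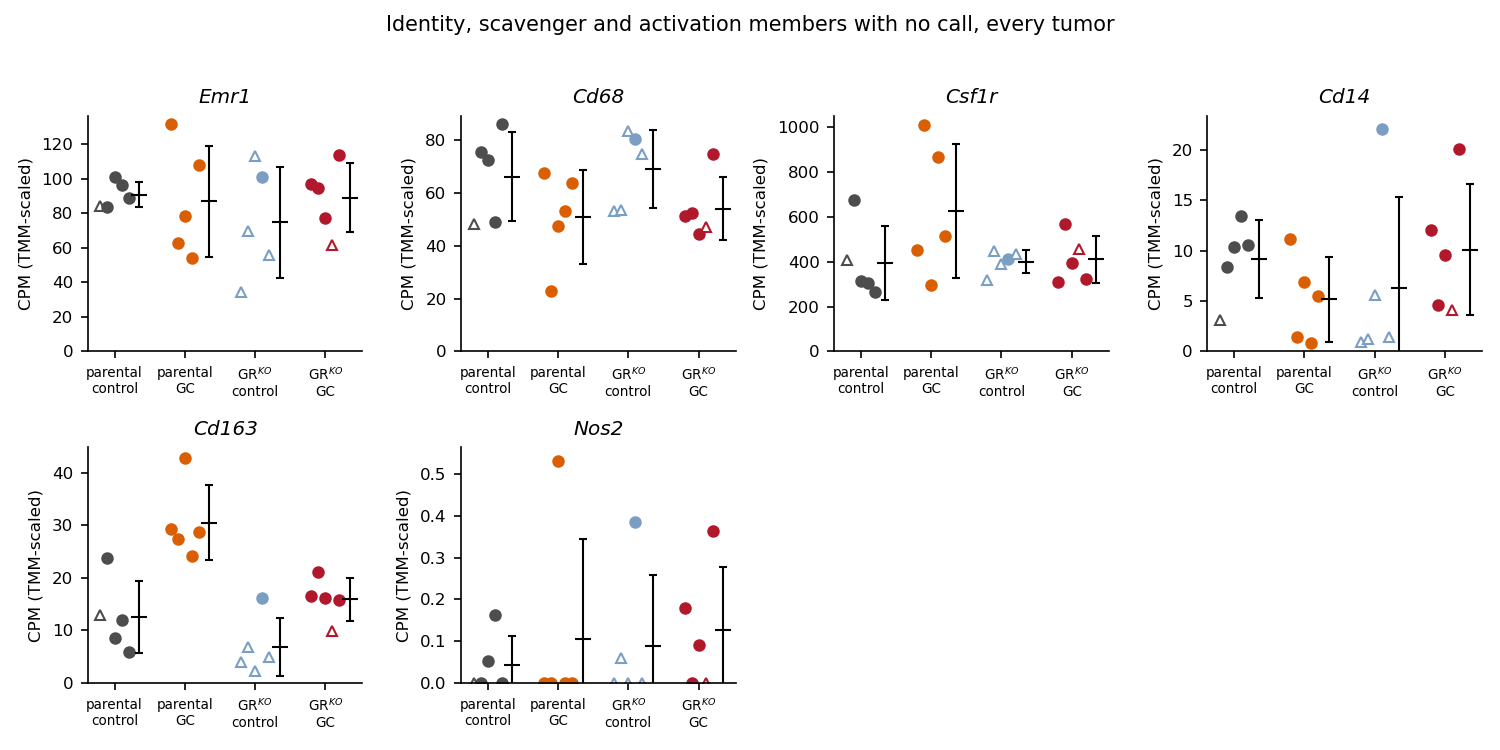
CPM of 6 members without a call in each of the 20 tumors, with bars for mean ± SD (n = 5 per group; bars end at 0) and open triangles for libraries with over 5% of counts in *Gm26924*. GR KO control tumor 4 stands above its group in *Cd14* (22.1) and *Cd163* (16.1).

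Fc receptors bind the constant part of IgG and drive uptake of antibody-coated particles. *Fcgr3* (CD16) measured 124, 197, 122, 124 and 82.1 CPM in parental control tumors 1 to 5 and 204, 156, 139.7, 156 and 186 CPM in parental GC tumors 1 to 5. *Fcgr3* was at 77.6, 67.3, 69.1, 158 and 143 CPM in GR KO control and 177, 232, 311, 189.9 and 208 CPM in GR KO GC tumors. With GC every GR KO tumor was above every GR KO control tumor, whereas the parental groups overlapped. *Fcgr3* rose 2.17-fold in GR KO tumors (log2 fold change 1.12 ± 0.26 SE, edgeR adjusted p = 0.0136). In parental tumors its log2 fold change was 0.38 ± 0.25 (edgeR adjusted p = 0.527), and the interaction had an adjusted p of 0.248. Its log2 fold change in GR KO tumors was 0.55 without the 6 libraries high in *Gm26924* (edgeR adjusted p = 0.816), 0.97 without the 5 libraries above 40 on the first component (adjusted p = 0.192), 1.12 without the 8 beyond 40 on either side (adjusted p = 0.164) and 1.04 with the share as a covariate (adjusted p = 0.0232). Without GR KO GC tumor 3, the edgeR adjusted p was 0.0566.

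*Fcgr4* (CD16-2), which binds IgG2 subclasses, measured 483, 206, 342, 392 and 210.4 CPM in parental control tumors 1 to 5 and 402, 428, 173, 521 and 179 CPM in parental GC tumors 1 to 5. *Fcgr4* was at 911, 1240.5, 677, 584 and 540.3 CPM in GR KO control and 405, 623, 426, 421 and 353 CPM in GR KO GC tumors. The GR KO control tumors were all above the parental control tumors, with replicates 1 and 2 the highest. *Fcgr4* was 2.42-fold higher in control tumors of GR KO cells than of parental cells (log2 fold change 1.28 ± 0.31 SE, edgeR adjusted p = 0.0347). In GC tumors the genotype difference was 0.39 ± 0.31 (edgeR adjusted p = 0.659), and the interaction had an adjusted p of 0.256. The difference in control tumors was 1.04 without the 6 libraries high in *Gm26924* (edgeR adjusted p = 0.892), 0.96 without the 5 libraries above 40 on the first component (adjusted p = 0.355), 0.83 without the 8 beyond 40 on either side (adjusted p = 0.421) and 1.05 with the share as a covariate (adjusted p = 0.0902). With 1 library left out, edgeR gave an adjusted p of 0.0867, 0.0816, 0.0638 and 0.0768 without parental control tumors 2, 3, 4 and 5, and 0.0838 and 0.115 without GR KO control tumors 1 and 2. *Fcgr1*, the high-affinity receptor CD64, had 34.4 ± 7.62, 31.1 ± 14.6, 58.2 ± 6.04 and 46.8 ± 9.32 CPM (mean ± SD, groups in the order above). It did not overlap between the control groups, with a log2 fold change of 0.76 ± 0.25 in GR KO against parental control tumors (edgeR adjusted p = 0.102).

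Scavenger and endocytic receptors take up modified lipoproteins, glycoproteins and cell debris. *Stab1*, which encodes the receptor stabilin-1, measured 135, 125, 159, 106 and 137 CPM in parental control tumors 1 to 5 and 219, 353, 224, 456 and 314 CPM in parental GC tumors 1 to 5. *Stab1* was at 142, 116, 80.7, 104 and 145 CPM in GR KO control and 143, 191, 175, 191 and 119 CPM in GR KO GC tumors. All parental GC tumors were above all parental control tumors and above all GR KO GC tumors, while the GR KO groups overlapped. *Stab1* rose 2.37-fold with GC in parental tumors (log2 fold change 1.24 ± 0.22 SE, edgeR adjusted p = 0.00487), against a log2 fold change of 0.48 ± 0.22 in GR KO tumors (adjusted p = 0.172). The interaction had an edgeR adjusted p of 0.172. The change in parental tumors was 1.26 without the 6 libraries high in *Gm26924* (edgeR adjusted p = 0.0152), 0.95 without the 5 libraries above 40 on the first component (adjusted p = 0.0528), 0.96 without the 8 beyond 40 on either side (adjusted p = 0.0675) and 1.24 with the share as a covariate (adjusted p = 0.00189). Among GC tumors, those of GR KO cells had less *Stab1* than those of parental cells (log2 fold change -0.94 ± 0.22 SE, edgeR adjusted p = 0.0396). That difference was -0.9997 without the 6 libraries high in *Gm26924* (edgeR adjusted p = 0.0506), -0.63 without the 5 libraries above 40 on the first component (adjusted p = 0.288), -0.45 without the 8 beyond 40 on either side (adjusted p = 0.6098) and -0.96 with the share as a covariate (adjusted p = 0.0169). The genotype call in GC tumors did not pass edgeR's threshold with 1 library left out (adjusted p = 0.102, 0.135 and 0.0765 without parental GC tumors 2, 4 and 5, and 0.108, 0.05602, 0.0788 and 0.133 without GR KO GC tumors 1, 2, 3 and 5), with the replicate number as a block (0.0581) or with the 2 compared groups alone (0.0916). Exons of *Stab1* overlap those of *Nt5dc2* on the other strand, and whether counting used strand was not stated.

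*Mrc1*, the mannose receptor CD206, measured 28.9, 62.3, 41.98, 45.1 and 39.05 CPM in parental control tumors 1 to 5 and 85.7, 60.7, 71.96, 46.2 and 57.9 CPM in parental GC tumors 1 to 5. *Mrc1* was at 10.99, 33.5, 21.2, 51.5 and 34.8 CPM in GR KO control and 86.5, 49.00, 73.1, 40.4 and 99.5 CPM in GR KO GC tumors. The GR KO groups overlapped through GR KO control tumor 4 and GR KO GC tumors 2 and 4. *Mrc1* rose 2.29-fold with GC in GR KO tumors (log2 fold change 1.20 ± 0.32 SE, edgeR adjusted p = 0.0267), with 0.57 ± 0.31 in parental tumors (adjusted p = 0.422) and an interaction adjusted p of 0.432. The change in GR KO tumors was 0.57 without the 6 libraries high in *Gm26924* (edgeR adjusted p = 0.792), 0.93 without the 5 libraries above 40 on the first component (adjusted p = 0.2597), 0.59 without the 8 beyond 40 on either side (adjusted p = 0.498) and 0.96 with the share as a covariate (adjusted p = 0.0674). Its edgeR adjusted p was 0.0637, 0.0527 and 0.05803 without GR KO control tumors 1, 2 and 3, and 0.0696, 0.0679 and 0.0873 without GR KO GC tumors 1, 3 and 5, and 0.07798 with the 2 compared groups alone. *Cd163*, the receptor for haemoglobin bound to haptoglobin, measured 12.9, 23.8, 8.49, 11.9 and 5.92 CPM in parental control and 29.2, 27.4, 42.7, 24.2 and 28.7 CPM in parental GC tumors. Its levels were 3.96, 6.81, 2.19, 16.1 and 4.86 CPM in GR KO control and 16.5, 21.2, 16.2, 9.80 and 15.7 CPM in GR KO GC tumors. Every parental GC tumor was above every tumor of the other 3 groups, yet *Cd163* did not pass the test, with a log2 fold change of 1.28 ± 0.40 in parental tumors (edgeR adjusted p = 0.156) and 1.21 ± 0.41 in GR KO tumors (0.0722).

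Of the remaining scavenger receptors, *Msr1*, which binds modified lipoproteins, had 60.1 ± 22.6, 80.8 ± 5.95, 60.9 ± 15.7 and 73.99 ± 17.1 CPM (mean ± SD, same order of groups). *Marco*, which binds bacteria and particles, had 4.86 ± 3.86, 0.998 ± 0.514, 7.31 ± 6.43 and 0.928 ± 1.26 CPM, and *Timd4*, a receptor for phosphatidylserine, had 0.966 ± 0.553, 1.10 ± 0.6098, 1.62 ± 1.60 and 1.14 ± 0.598 CPM. *Marco* was lower on average in both GC groups, but its log2 fold changes of -2.28 ± 0.96 (parental) and -2.98 ± 0.98 (GR KO) did not pass the test (edgeR adjusted p = 0.2804 and 0.0669). For *Msr1* and *Timd4* the edgeR adjusted p ranged from 0.407 to 0.989 over the GC and genotype comparisons.

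Complement and lipid genes are led here by *Apoe*, a lipid carrier protein. *Apoe* measured 4798, 6351, 3620.4, 4055 and 3796 CPM in parental control tumors 1 to 5 and 10495, 13426, 5799, 12892 and 12374 CPM in parental GC tumors 1 to 5. *Apoe* was at 5417, 5604, 4026, 5634 and 5187 CPM in GR KO control and 8287, 13451, 8169, 8169 and 6626 CPM in GR KO GC tumors. In GR KO tumors the groups did not overlap, and in parental tumors only GC tumor 3 reached down into the control range, below control tumor 2. *Apoe* rose 2.43-fold with GC in parental tumors (log2 fold change 1.28 ± 0.25 SE, edgeR adjusted p = 0.00957) and had a log2 fold change of 0.79 ± 0.24 in GR KO tumors (adjusted p = 0.0531), with an interaction adjusted p of 0.4297. The parental value was 1.31 without the 6 libraries high in *Gm26924* (edgeR adjusted p = 0.0323), 1.09 without the 5 libraries above 40 on the first component (adjusted p = 0.118), 1.04 without the 8 beyond 40 on either side (adjusted p = 0.238) and 1.29 with the share as a covariate (adjusted p = 0.00396). No single library ended this call. Cultures had 1.99 ± 1.73 CPM of *Apoe* with DMSO in parental cells (mean ± SD, n = 3).

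The 3 genes of the C1q complex, the recognition unit of the classical complement pathway, lie next to each other on chromosome 4. *C1qa* had 2378 ± 478, 3139.6 ± 1339, 4634 ± 1405 and 2811 ± 1047 CPM (mean ± SD, same order of groups). *C1qb* had 1359.5 ± 214, 2037 ± 759, 1594 ± 256 and 1565 ± 310.4 CPM, and *C1qc* had 297 ± 40.6, 218 ± 110.0, 309.6 ± 133 and 351 ± 87.9 CPM. *C1qa* measured 2852, 2477, 2164, 2733 and 1665 CPM in parental control tumors 1 to 5 against 6706, 5128, 2931, 3992 and 4412 CPM in GR KO control tumors 1 to 5. The control groups did not overlap for *C1qa*, and its log2 fold change of 0.96 ± 0.29 missed the threshold (edgeR adjusted p = 0.0781). *C1qa* was called by edgeR with the replicate number as a block and without GR KO control tumor 4. For *C1qb* and *C1qc* the same difference was 0.23 ± 0.22 and 0.06 ± 0.30 (edgeR adjusted p = 0.583 and 0.932). GC gave log2 fold changes of 0.40, 0.58 and -0.45 for *C1qa*, *C1qb* and *C1qc* in the parental line, with -0.72, -0.03 and 0.18 in GR KO tumors, and none of the 6 passed edgeR's threshold (lowest adjusted p 0.129). The 3 genes thus did not share 1 direction in either genotype.

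*Trem2*, a lipid-sensing receptor that signals through *Tyrobp*, had 43.6 ± 11.8, 48.5 ± 22.9, 74.9 ± 20.2 and 48.2 ± 11.3 CPM. *Gpnmb*, a transmembrane glycoprotein also made by pigment cells, had 10.8 ± 5.94, 13.1 ± 3.28, 8.07 ± 5.87 and 11.3 ± 2.47 CPM. *Spp1*, the secreted protein osteopontin, had 659 ± 225, 394 ± 147, 381 ± 95.4 and 565 ± 128 CPM, and its exons overlap those of *Gm42793* on the same strand. *Spp1* was the member with the lowest interaction p: its log2 fold change with GC was -0.74 ± 0.25 in parental and 0.57 ± 0.25 in GR KO tumors, with a difference of -1.31 ± 0.36 (edgeR adjusted p = 0.0877). With all libraries it missed the threshold in edgeR without a block, and passed it with the replicate number as a block and in DESeq2. It also passed in edgeR without GR KO control tumor 4 and without parental GC tumor 3. Over the GC and genotype comparisons, the edgeR adjusted p of *Trem2* and *Gpnmb* ranged from 0.124 to 0.994.

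**Figure D4:**
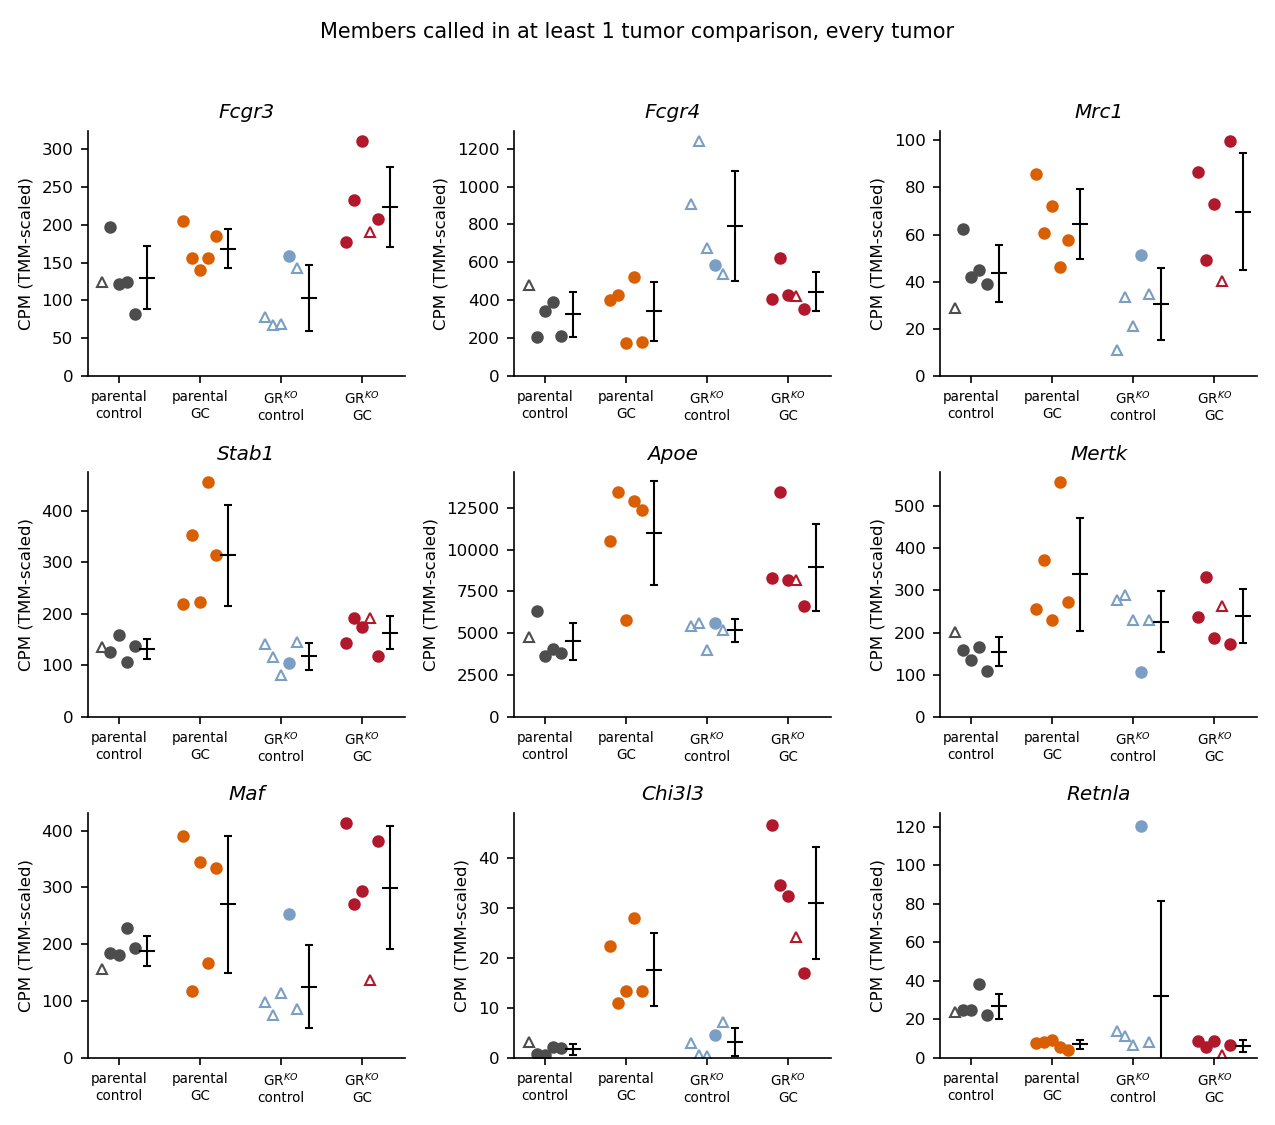
CPM of the 9 members that were DEGs in a tumor comparison, in each of the 20 tumors, with bars for mean ± SD (n = 5 per group; bars end at 0) and open triangles for libraries with over 5% of counts in *Gm26924*. *Chi3l3* was at 7.25 CPM or less in all 10 control tumors and at 11.1 CPM or more in all 10 GC tumors.

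Receptor tyrosine kinases of the TAM family bind bridging proteins on dying cells. *Mertk* measured 201, 159.7, 135, 165 and 109 CPM in parental control tumors 1 to 5 and 256, 373, 229.9, 558 and 273 CPM in parental GC tumors 1 to 5. *Mertk* was at 276, 288, 228, 106 and 229.5 CPM in GR KO control and 238, 331, 187, 263 and 173 CPM in GR KO GC tumors. Parental GC tumors were all above parental control tumors, with replicate 4 the highest, and the GR KO groups overlapped with control tumor 4 as the lowest. *Mertk* rose 2.19-fold with GC in parental tumors (log2 fold change 1.13 ± 0.27 SE, edgeR adjusted p = 0.0457) and had 0.08 ± 0.27 in GR KO tumors (adjusted p = 0.888), with an interaction adjusted p of 0.141. The parental value was 1.26 without the 6 libraries high in *Gm26924* (edgeR adjusted p = 0.0349), 0.73 without the 5 libraries above 40 on the first component (adjusted p = 0.354), 0.63 without the 8 beyond 40 on either side (adjusted p = 0.549) and 1.17 with the share as a covariate (adjusted p = 0.00297). It lay close to the threshold, and with 1 library left out edgeR gave an adjusted p of 0.05503, 0.132, 0.08203 and 0.144 without parental control tumors 2, 3, 4 and 5, 0.1099, 0.165 and 0.0577 without parental GC tumors 2, 4 and 5, 0.0564 and 0.0544 without GR KO control tumors 3 and 5, and 0.0568 and 0.0504 without GR KO GC tumors 1 and 4. *Mertk* was also counted in every culture (68.8 ± 21.2 CPM in parental cells with DMSO, n = 3). *Axl*, of the same family, had 493 ± 120.5, 701 ± 204, 651 ± 53.9 and 598 ± 76.6 CPM in tumors (mean ± SD, same order of groups) and 1087 ± 118 CPM in those cultures. Its edgeR adjusted p ranged from 0.2203 to 0.748 over the 5 tumor comparisons.

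Chemokine receptors guide monocytes into tissue. *Ccr2*, the receptor for CCL2, had 76.6 ± 43.03, 43.5 ± 9.60, 57.7 ± 17.8 and 29.9 ± 6.00 CPM, and *Cx3cr1*, the receptor for fractalkine, had 569.5 ± 124, 574 ± 336, 681 ± 247 and 357 ± 111 CPM (mean ± SD, same order of groups). With GC the log2 fold change of *Ccr2* was -0.82 ± 0.31 in parental and -0.95 ± 0.31 in GR KO tumors (edgeR adjusted p = 0.229 and 0.0674). *Cx3cr1* had 0.01 ± 0.31 and -0.93 ± 0.31 (0.993 and 0.07398). Both means were lowest in GR KO GC tumors, and neither passed the test. Exons of *Cx3cr1* overlap those of *Gm33858* on the other strand. The toll-like receptors sense microbial products: *Tlr2* had 13.9 ± 1.40, 9.99 ± 2.23, 13.6 ± 4.40 and 14.3 ± 3.48 CPM and *Tlr4* 7.45 ± 2.39, 6.26 ± 0.9904, 12.04 ± 4.10 and 7.76 ± 1.51 CPM. Neither was a DEG, with edgeR adjusted p from 0.192 to 0.959.

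*Maf*, the transcription factor c-MAF of macrophage differentiation, measured 157, 184, 182, 229 and 193 CPM in parental control tumors 1 to 5 and 391, 117, 345, 166 and 333 CPM in parental GC tumors 1 to 5. *Maf* was at 98.7, 74.7, 114, 254 and 85.98 CPM in GR KO control and 413, 271, 294, 137 and 382 CPM in GR KO GC tumors. GR KO GC tumors were above GR KO control tumors apart from GC tumor 4, which lay below control tumor 4. Parental GC tumors split, with 1, 3 and 5 above the control range and 2 below it. *Maf* rose 2.39-fold with GC in GR KO tumors (log2 fold change 1.26 ± 0.34 SE, edgeR adjusted p = 0.0302), against 0.52 ± 0.34 in parental tumors (adjusted p = 0.508). The interaction had an edgeR adjusted p of 0.389. The GR KO value was 0.42 without the 6 libraries high in *Gm26924* (edgeR adjusted p = 0.924), 0.70 without the 5 libraries above 40 on the first component (adjusted p = 0.358), 0.36 without the 8 beyond 40 on either side (adjusted p = 0.663) and 0.94 with the share as a covariate (adjusted p = 0.0438). Its edgeR adjusted p was 0.0827, 0.08499, 0.0573 and 0.0675 without GR KO control tumors 1, 2, 3 and 5, and 0.0882, 0.0717 and 0.0863 without GR KO GC tumors 1, 3 and 5, and 0.06399 with the 2 compared groups alone. Exons of *Maf* overlap those of *Gm15655* on the other strand.

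Activation-state genes included the largest positive fold change. *Chi3l3*, the secreted chitinase-like protein Ym1 (now named *Chil3*), measured 3.18, 0.864, 0.514, 2.16 and 2.01 CPM in parental control tumors 1 to 5 and 22.5, 11.1, 13.4, 28.1 and 13.4 CPM in parental GC tumors 1 to 5. *Chi3l3* was at 3.08, 0.657, 0.342, 4.60 and 7.25 CPM in GR KO control and 46.8, 34.6, 32.5, 24.3 and 17.1 CPM in GR KO GC tumors. All 10 GC tumors were above all 10 control tumors, in both genotypes. *Chi3l3* rose 10.2-fold in parental tumors (log2 fold change 3.35 ± 0.59 SE, edgeR adjusted p = 0.00491) and 9.67-fold in GR KO tumors (3.27 ± 0.58, adjusted p = 0.00289), and the interaction had an adjusted p of 0.973. In parental tumors the value was 3.68 without the 6 libraries high in *Gm26924* (edgeR adjusted p = 0.000833), 3.25 without the 5 libraries above 40 on the first component (adjusted p = 0.0104), 3.32 without the 8 beyond 40 on either side (adjusted p = 0.0357) and 3.34 with the share as a covariate (adjusted p = 0.00297). In GR KO tumors it was 2.83 without the 6 libraries high in *Gm26924* (edgeR adjusted p = 0.203), 3.59 without the 5 libraries above 40 on the first component (adjusted p = 0.0342), 3.59 without the 8 beyond 40 on either side (adjusted p = 0.0766) and 3.25 with the share as a covariate (adjusted p = 0.00426). No single library ended either call. *Chi3l3* has a near-identical neighbour, *Chi3l4*, so that a share of its counts may belong to the other gene, and *Chi3l4* itself did not pass the filter.

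*Retnla*, the secreted protein Relm-alpha, measured 23.9, 24.7, 25.00, 38.4 and 22.5 CPM in parental control tumors 1 to 5 and 7.76, 8.37, 9.24, 5.56 and 4.05 CPM in parental GC tumors 1 to 5. *Retnla* was at 14.1, 11.4, 6.63, 120.3 and 8.17 CPM in GR KO control and 8.61, 5.71, 8.68, 1.32 and 6.63 CPM in GR KO GC tumors. Every parental GC tumor was below every parental control tumor. In GR KO control tumors replicate 4 was far above the other 4, which overlapped with the GC tumors. *Retnla* was lower with GC in GR KO tumors (log2 fold change -2.38 ± 0.62 SE, edgeR adjusted p = 0.0257), but without GR KO control tumor 4 the value was -0.69 (adjusted p = 0.217). The call was also lost without GR KO GC tumors 3 and 5 (edgeR adjusted p = 0.0595 and 0.0635), with the replicate block (0.137) and with the 2 compared groups alone (0.08804). DESeq2 gave no adjusted p for *Retnla* here. The GR KO value of *Retnla* was -4.02 without the 6 libraries high in *Gm26924* (edgeR adjusted p = 2.97e-05), -3.36 without the 5 libraries above 40 on the first component (adjusted p = 0.0158), -3.58 without the 8 beyond 40 on either side (adjusted p = 0.0766) and -2.36 with the share as a covariate (adjusted p = 0.002297). With the 6 left out, control tumor 4 is the 1 GR KO control tumor, so the value of -4.02 rests on that tumor alone. With the 5 or the 8 left out, GR KO control tumors 3 and 4 remain. Control tumor 3 (6.63 CPM) lay within the range of the GR KO GC tumors (1.32 to 8.68 CPM). The values of -3.36 and -3.58 therefore also depended on control tumor 4 (120.3 CPM) and are not separate evidence for a fall. In parental tumors the log2 fold change was -1.94 ± 0.61 (edgeR adjusted p = 0.154), and the interaction had an adjusted p of 0.807.

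*Nos2*, which makes nitric oxide, was at 0, 0, 0.0514, 0.162 and 0 CPM in parental control and 0, 0, 0.5304, 0 and 0 CPM in parental GC tumors. *Nos2* was at 0, 0.0597, 0, 0.386 and 0 CPM in GR KO control and 0.178, 0, 0.0899, 0 and 0.363 CPM in GR KO GC tumors. It was counted in 8 of 20 tumors and failed the filter, so no difference in *Nos2* was detectable at this depth.

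Positions on GRCm38 for the 9 members called in tumors, with the identifiers of the count table, are ENSMUSG00000042286 for *Stab1* (chr14:31139013-31168641), ENSMUSG00000002985 for *Apoe* (chr7:19696109-19699188), ENSMUSG00000014361 for *Mertk* (chr2:128698956-128802894) and ENSMUSG00000040809 for *Chi3l3* (chr3:106147554-106167564). *Fcgr3* is ENSMUSG00000059498 (chr1:171051174-171064935) and *Fcgr4* ENSMUSG00000059089 (chr1:171018920-171029761), close to each other on chromosome 1. *Mrc1* is ENSMUSG00000026712 (chr2:14229392-14332057), *Maf* ENSMUSG00000055435 (chr8:115682942-115707794) and *Retnla* ENSMUSG00000061100 (chr16:48842551-48844461). Exons of *Csf1r* overlap those of *Hmgxb3* on the other strand, and those of *Itgam* overlap *Gm49368* on the same strand, so their counts are uncertain in part.

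In cultures 11 members passed the filter among 12525 genes: *Cd68*, *Cd14*, *Apoe*, *Spp1*, *Gpnmb*, *Mertk*, *Axl*, *Cx3cr1*, *Ccr2*, *Maf* and *Tlr4*. With GC in parental cells edgeR called 0 of the 11, against 0.878% of all genes, with 2 at an unadjusted p under 0.05 (all genes 8.48%) and 0 called by DESeq2. With GC in GR KO cells edgeR called 0 of the 11 and 0% of all genes, with 0 members at an unadjusted p under 0.05 (all genes 1.89%) and 0 called by DESeq2. *Apoe*, higher with GC in parental tumors, had a log2 fold change of 0.46 ± 0.71 with GC in parental cells (edgeR adjusted p = 0.818), and *Mertk* had 0.34 ± 0.24 (0.698). *Maf*, higher with GC in GR KO tumors, was at 20.01 and 15.7 CPM in parental GC cultures. Parental DMSO cultures had 9.04, 7.57 and 10.7 CPM, and the change did not pass the test (0.97 ± 0.33, edgeR unadjusted p = 0.01303, adjusted p = 0.358).

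Between genotypes with DMSO, 2 of the 11 were DEGs in cultures, both lower in GR KO cells, against 8.22% of all genes. *Spp1* measured 355, 179 and 311 CPM in parental and 91.98, 131 and 67.5 CPM in GR KO cultures with DMSO (log2 fold change -1.54 ± 0.36 SE, edgeR adjusted p = 0.02005). *Maf* measured 9.04, 7.57 and 10.7 CPM in parental and 2.86, 4.06 and 4.68 CPM in GR KO cultures with DMSO (-1.23 ± 0.31, edgeR adjusted p = 0.02999). For *Spp1* the edgeR adjusted p was 0.0767 and 0.0534 without parental DMSO cultures 1 and 3, and 0.0796 and 0.0791 without GR KO DMSO cultures 1 and 3. For *Maf* it was 0.0748 and 0.0828 without parental DMSO cultures 1 and 3, and 0.115 and 0.0931 without GR KO DMSO cultures 1 and 2, and 0.0631 with the replicate block. The count of 2 was 0 without parental DMSO culture 1 or 3 or GR KO DMSO culture 1, and 1 without GR KO DMSO culture 2 or 3.

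Promoter sequences were read from RefSeq (GRCm38.p6), as 250 bases before to 50 bases after each start. Of the 37 members 27 were matched, with 31 promoters. The letters AGAACA, which make up 1 side of the GR response element, were searched on both strands. They were in 8 of 31 member promoters (25.8%) and in 6233 of 32851 promoters of all genes (18.97%). A match is a description, not a site or a cause, and no match says only that these letters are not in this window. The outermost of 3 *Apoe* promoters (chr7:19699139-19699438, minus strand) is shown since *Apoe* was higher with GC in parental tumors, and that of *Chi3l3* (chr3:106167515-106167814, minus strand) since it was higher with GC in both genotypes. Both are 5′ to 3′, with capitals for AGAACA, which is present 2 times in the *Apoe* window and absent from the other 2 *Apoe* promoters and from the *Chi3l3* window.
Apoe: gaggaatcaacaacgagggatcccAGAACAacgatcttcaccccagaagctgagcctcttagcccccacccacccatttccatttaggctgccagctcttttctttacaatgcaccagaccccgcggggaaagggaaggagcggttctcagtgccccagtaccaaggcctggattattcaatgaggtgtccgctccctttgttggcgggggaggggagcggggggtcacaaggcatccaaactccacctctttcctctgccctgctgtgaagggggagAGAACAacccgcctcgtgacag
Chi3l3: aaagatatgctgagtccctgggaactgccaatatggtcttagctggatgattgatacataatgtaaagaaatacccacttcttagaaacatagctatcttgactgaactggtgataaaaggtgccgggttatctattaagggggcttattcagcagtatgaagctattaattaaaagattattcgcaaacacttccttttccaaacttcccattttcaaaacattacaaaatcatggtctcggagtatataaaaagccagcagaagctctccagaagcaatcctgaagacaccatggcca

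Genes of lists tied to the same cells follow, and many were also counted in melanoma cells alone. In cultures the filter passed 3 of 6 growth factor, 7 of 10 lineage, 5 of 13 recruitment and 2 of 12 resident macrophage genes. It passed 12 of 15 phagocyte, 4 of 15 inflammatory, 3 of 12 alternative activation and 8 of 10 GC response genes. The cell source of changes in tumors was not tested. Of 6 growth factors and receptors, 5 were tested in tumors and edgeR called 0 in both GC comparisons. There 0 in parental and 3 in GR KO tumors had an unadjusted p under 0.05 (all genes 14.1% and 24.5%). For every list, the shares of all genes called with GC were 0.779% in parental and 6.42% in GR KO tumors (2.71% higher, 3.71% lower). Between genotypes they were 2.25% in control and 0.634% in GC tumors. Small counts per list are not read as results about the list. Among the ligands of *Csf1r*, *Csf1* had 47.7 ± 8.87, 37.1 ± 7.53, 83.6 ± 42.7 and 47.05 ± 18.1 CPM and *Il34* 429 ± 137, 531 ± 289, 513 ± 175 and 277 ± 143 CPM in tumors, against 196 ± 17.7 and 277 ± 39.5 CPM in parental cells with DMSO (n = 3). Of 10 lineage transcription factors 9 were tested. *Irf8* of monocyte and dendritic cell development was lower with GC in GR KO tumors (log2 fold change -1.09 ± 0.21, edgeR adjusted p = 0.00439), and 0 were called in parental tumors, with a median of -0.16. Of 13 monocyte recruitment genes, 1 was higher (*F13a1*, 1.14 ± 0.33) and 1 lower (the chemokine *Ccl8*, -1.13 ± 0.28) with GC in GR KO tumors, and 0 were called in parental tumors (median -0.37). Of 12 resident macrophage genes, 2 were higher in GR KO tumors, *F13a1*, which both lists hold, and the selenium carrier *Sepp1* (1.60 ± 0.46), with 0 called in parental tumors (median 0.22). Of 15 phagocyte and lysosome genes, *Ctsl* was lower in parental GC tumors (-1.06 ± 0.25), and in GR KO tumors 4 were lower, among them *Laptm5* (-1.34 ± 0.24) and *Lgals3* (-1.29 ± 0.20). *Laptm5*, *Lgals3* and *Ctsz* were higher in control tumors of GR KO cells than of parental cells (0.99 ± 0.24, 0.74 ± 0.20 and 0.64 ± 0.16).

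Of 15 inflammatory activation genes 12 were tested, with the shares of all genes given above for the lists. The cytokines *Il1b* and *Tnf* were lower with GC in parental tumors (log2 fold change -2.99 ± 0.46 and -1.99 ± 0.36, edgeR adjusted p = 0.00156 and 0.00645), and 5 were lower in GR KO tumors, among them *Il12b* (-4.20 ± 0.99), *Tnf* (-2.98 ± 0.38) and *Il1b* (-2.29 ± 0.45). Of 12 alternative activation genes 11 were tested. The chemokine *Ccl22* was lower in both genotypes (-1.79 ± 0.33 and -2.24 ± 0.34), and in GR KO tumors *Mgl2* was lower (-1.21 ± 0.33) and *Vegfa* higher (1.70 ± 0.48). Of 10 GC response genes, 5 were higher in parental tumors, led by *Tsc22d3* (2.34 ± 0.25), *Per1* (2.19 ± 0.27) and *Ddit4* (1.77 ± 0.25), and in GR KO tumors 6 were higher, led by *Fkbp5* (2.03 ± 0.35), *Tsc22d3* (1.77 ± 0.25) and *Anxa1* (1.72 ± 0.50), and 1 lower. Between genotypes *Il1r2* was higher and *Fkbp5* lower in GR KO control tumors (0.75 ± 0.19 and -1.50 ± 0.35), and *Per1* was lower in GR KO GC tumors (-1.24 ± 0.26).

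Markers of other cells moved in the same comparisons, and their part in the members' results was not tested. Over all genes, edgeR called 0.779% with GC in parental and 6.42% with GC in GR KO tumors. Small counts of called markers are therefore not read as results about a cell type. Of 6 fibroblast markers, 0 were called with GC in parental tumors and 4 were higher in GR KO tumors, *Col3a1*, *Pdgfra*, *Col1a2* and *Col1a1*. Their summed level was 6637, 7299, 6834, 7352 and 6975 CPM in parental control, 10619.7, 8246, 10611, 7662 and 10653 CPM in parental GC, 3560.1, 3885, 4449, 6481 and 5025 CPM in GR KO control and 9856, 8036, 11235, 7261 and 11044 CPM in GR KO GC tumors, with *Col3a1* the most counted and none at 0. Both GC groups lay above their control groups without overlap. Of 10 neutrophil markers, 8 were tested and *S100a8* and *S100a9* were lower with GC in parental tumors, with 0 called in GR KO tumors. The sum was 25.2, 69.6, 249.8, 34.5 and 1278 CPM in parental control, 17.1, 11.9, 14.5, 27.1 and 40.6 CPM in parental GC, 431, 788, 266, 180.3 and 1026 CPM in GR KO control and 99.3, 52.9, 231, 201 and 138 CPM in GR KO GC tumors, with *S100a8* the most counted and *Ly6g* at 0 in every tumor. Parental control tumor 5 was the highest. Of 5 pan-leukocyte markers, *Coro1a* was lower in parental and *Cd52*, the most counted, in GR KO tumors, with sums of 838, 709.8, 810.1, 942 and 602 CPM in parental control, 712, 477, 324, 703 and 394 CPM in parental GC, 1098, 1199, 1155, 1412 and 1028 CPM in GR KO control and 596, 743, 614, 590.5 and 777 CPM in GR KO GC tumors. None was at 0. These sums were lower on average with GC.

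Of 10 dendritic cell markers 9 were tested, with 3 lower with GC in GR KO tumors (*Batf3*, *Zbtb46* and *Itgax*) and 0 called in parental tumors. Their sum was 1278, 1122, 1261, 1486 and 1634 CPM in parental control, 1023, 460.0, 1033, 524 and 1086 CPM in parental GC, 1478, 1213, 1351, 1573 and 1066 CPM in GR KO control and 1126, 1021, 791, 1100.5 and 1040.0 CPM in GR KO GC tumors, most of it from *Fscn1*, and none was at 0. *Fscn1* was also at 481 ± 179 CPM in parental DMSO cultures (n = 3), which hold no dendritic cells. Of 10 T and NK cell markers 9 were tested, with *Cd2* and *Cd3d* lower with GC in GR KO tumors and 0 called in parental tumors, and sums of 173, 145, 107, 169.7 and 89.9 CPM in parental control, 118, 99.4, 62.5, 113 and 95.02 CPM in parental GC, 215, 194, 147, 298 and 143 CPM in GR KO control and 78.6, 121, 97.2, 63.3 and 58.1 CPM in GR KO GC tumors. *Cd2* was the most counted and *Trac* at 0. In the order of groups used above, the sum (mean ± SD, n = 5) was 57.3 ± 11.2, 30.2 ± 7.53, 93.01 ± 9.93 and 48.3 ± 4.72 CPM over 5 endothelial markers, with *Kdr* lower in GR KO GC tumors, and 1345 ± 840.5, 1143 ± 132, 2547 ± 942 and 1213 ± 343 CPM over 5 keratinocyte markers, with *Krt15* higher in parental and *Krt10* and *Krt1* higher and *Krt14* lower in GR KO GC tumors. It was 367 ± 41.1, 374 ± 116, 455 ± 112 and 296 ± 52.4 CPM over 5 muscle markers, with *Myh4* lower in GR KO GC tumors, and 154 ± 25.4, 131 ± 16.4, 141 ± 57.6 and 65.5 ± 8.54 CPM over 4 adipocyte markers, with *Cfd* lower in GR KO GC tumors. Between genotypes in control tumors, where *Fcgr4* was called, *Itgax* (1.12 ± 0.27), *Ncr1* (1.71 ± 0.43) and *Kdr* (0.98 ± 0.26) were higher and *Col3a1* (-0.997 ± 0.22) and *Krt1* (-1.21 ± 0.31) lower in GR KO (log2 fold change ± SE). Mast cell markers summed to 164 ± 32.2, 258 ± 49.5, 118 ± 21.03 and 117 ± 19.9 CPM with 0 of 5 called for GC, and *Mcpt4* and *Tpsb2* were lower in GR KO than in parental GC tumors, as was the adipocyte marker *Cfd*. Of 6 B cell markers 2 were tested, with sums of 7.75 ± 1.68, 7.82 ± 3.26, 8.49 ± 2.37 and 4.77 ± 2.28 CPM and *Igj* higher in GR KO GC tumors. Melanocyte markers summed to 42.98 ± 10.1, 46.1 ± 6.38, 33.2 ± 6.04 and 38.9 ± 9.97 CPM over 8 genes, of which 5 were tested and 0 called for GC, with *Tyr* at 0 in every tumor and culture, so the melanoma label rests on the records and not on these markers.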

How the data were processed

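RNA of 20 tumors and 11 cultures was sequenced with the QuantSeq 3′ kit from 500 ng of total RNA. The authors trimmed reads with Trim Galore 0.6.5, aligned them with STAR 2.6.1d to GRCm38 (Ensembl 75) and deposited integer counts per gene from featureCounts, without normalization. Its strand setting was not given in the sources used here. Tumors and cultures were fitted separately. Genes reaching 0.5 CPM in 3 or more samples were kept and scaled by TMM. edgeR 4.0.16 (R 4.3.3) fitted the 4 groups together and gave quasi-likelihood p-values, with Benjamini-Hochberg adjustment over all genes. Standard errors were derived from the F statistic. Tests were checked on simulated counts. The members and lists were chosen with earlier results of these data known. Values in every sample are given for members called in a tumor comparison and for *Emr1*, *Csf1r*, *Cd68*, *Cd14*, *Mrc1*, *Cd163* and *Nos2*, and at most 3 called genes per list and comparison carry values. *Csf1*, *Il34*, *Nr3c1*, *C1qa* in control tumors, *Spp1* in cultures and the other-cell markers lie outside this rule and were named after their values were seen. Values of 1 member and 1 list gene are not reported here, but the counts of members and list genes tested and called include them. Alternatives were DESeq2 1.42.0, its size factors, other filters and minimum folds, a replicate block, the 2 compared groups alone, each sample left out, and 4 added after seeing the data. Replicates are separate mice or cultures.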

Additional observations from a re-analysis of the deposited data

Results flagged for a closer look

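For the 15 members given in every sample, the highest and lowest tumor of each group of 5 were compared with the others of that group, over 60 pairs of member and group. In 11 of the 60 pairs 1 tumor lay further from its nearest neighbour than Dixon's 95% limit allows. That limit passes about 1 in 20 by chance only for normally distributed values. The CPM values were not transformed and the pairs share tumors, so these counts are not set against 1 in 20. *Nos2*, below the filter and at 0 in most tumors, makes 2 of the 11, in GR KO control tumor 4 (0.386 CPM) and parental GC tumor 3 (0.5304 CPM). There any count stands apart from the zeros, so the limit has no meaning, and 9 of 56 pairs remain for the other members. GR KO control tumor 4 was such a tumor for 3 of them: it was highest in *Cd14* (22.1 CPM), *Maf* (254) and *Retnla* (120.3). It is also the GR KO control tumor with the smallest share of *Gm26924*. Also set apart in GR KO control tumors was *Apoe* in tumor 3, the lowest at 4026 CPM. Among GR KO GC tumors, *Fcgr4* (623 CPM) and *Apoe* (13451 CPM) were highest in tumor 2, and *Cd68* (74.8 CPM) in tumor 5. Parental GC tumor 3 was highest in *Cd163* (42.7 CPM). *Retnla* was highest in parental control tumor 4 (38.4 CPM).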

How the results depend on the processing

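Of the 13 calls of single members, 13 of 13 stayed past the threshold with DESeq2's size factors, 13 of 13 without a low-count filter, 13 of 13 with a stricter one and 12 of 12 in DESeq2, which gave no adjusted p for *Retnla*. It was 10 of 13 with the replicate block and 9 of 13 with the 2 compared groups alone, and in tumors 5, 3 and 9 of 11 without the 6 and the 5 libraries named below and with the covariate. No direction turned in any alternative. DESeq2 called 11 members for GC in GR KO tumors (edgeR 5), 4 between genotypes in control tumors (edgeR 1) and 1 for the difference between GC effects (edgeR 0). A minimum fold of 2 left 0 between genotypes in GC tumors. Fits of the 2 compared groups alone called 2 for GC in GR KO tumors and 0 between genotypes in GC tumors. Of the alternatives chosen after seeing the data, leaving out the 6 libraries high in *Gm26924* gave 2 for GC in GR KO tumors, 0 between genotypes in control and 0 in GC tumors; leaving out the 5 above 40 on the first component gave 1 for GC in parental and 3 in GR KO tumors and 0 and 0 between genotypes in control and GC tumors. Leaving out the 8 beyond 40 on either side of that component gave 1 and 0 for GC in parental and GR KO tumors and 0 and 0 between genotypes, and kept 1 of 11 single calls in tumors. The covariate gave 0 between genotypes in control tumors. The cause was not tested, but leaving libraries out also leaves fewer samples.

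Leaving out each library in turn gave 3 to 5 members for GC in parental tumors, 1 to 9 for GC in GR KO tumors, 0 to 7 between genotypes in control tumors, 0 to 1 in GC tumors, 0 to 3 for the difference, 0 to 2 between genotypes in DMSO cultures, 0 to 0 for GC in parental and 0 to 0 in GR KO cultures.

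The replicate numbers do not pair the samples by design, and same-numbered tumors deviated from their group means with a mean correlation of 0.0583 over 30 pairs, 16 of them over 0.1 (cultures 0.0198 over 15 pairs). With the replicate block, edgeR called 3 members between genotypes in control tumors, 0 in GC tumors, 1 for the difference between GC effects and 1 between genotypes in DMSO cultures. It moved no other member count by over 1.5 times. Counts were too few to test *Nos2* in tumors and 26 members in cultures.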

Other observations

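Members were also set against *Csf1r*, as counts per count of *Csf1r* in the same tumor, where library scaling cancels out. These ratios are descriptions without a test, given as mean ± SD (n = 5) in parental control, parental GC, GR KO control and GR KO GC tumors. *Chi3l3* per *Csf1r* was 0.00508 ± 0.00332, 0.0329 ± 0.0155, 0.00795 ± 0.00674 and 0.07997 ± 0.0416. The ratio for *Apoe* was 12.1 ± 1.89, 18.99 ± 4.86, 13.1 ± 2.46 and 21.9 ± 3.44, and the ratio for *Stab1* was 0.376 ± 0.137, 0.544 ± 0.149, 0.298 ± 0.0927 and 0.404 ± 0.0523. For *Mrc1* it was 0.118 ± 0.0351, 0.132 ± 0.0824, 0.0736 ± 0.0337 and 0.189 ± 0.103, and for *Cd163* 0.03099 ± 0.00659, 0.0638 ± 0.0475, 0.0167 ± 0.0129 and 0.0402 ± 0.0122. The lowest *Chi3l3* ratio in a GC tumor was 0.01096 in the parental and 0.0525 in the GR KO group, against highest control ratios of 0.00776 and 0.0167. Its groups therefore did not overlap in either genotype on this scale. The *Apoe*, *Stab1*, *Mrc1* and *Cd163* ratios overlapped between parental control and parental GC tumors. *Csf1r* itself had a log2 fold change of 0.67 ± 0.29 with GC in parental tumors (edgeR unadjusted p = 0.028, adjusted p = 0.290). Its highest levels were in parental GC tumors 2 and 4, and its part in these ratios was not tested. In GR KO tumors the *Apoe* ratio did not overlap between control and GC, with a highest control ratio of 16.9 and a lowest GC ratio of 17.8, and those of *Stab1*, *Mrc1* and *Cd163* did.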
